A study of Homo sapiens with 4 samples.

Results

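The 42 genes described here encode proteins of the lysosome, the acidic compartment in which cells degrade proteins, glycans, lipids and glycoproteins. They were chosen by name as membrane proteins (6 genes), cathepsins and other proteases (8), glycosidases and sulfatases (15), lipid hydrolases and activator proteins (6), parts of the proton pump (3), MiT/TFE transcription factors (3) and progranulin. All 42 were found among the 60683 gene identifiers of the deposited tables. RNA was sequenced from HCT116, an established human colorectal carcinoma cell line. One group of cells carried a stable pSin lentivirus insert with the whole FOXD2 coding region, FOXD2 being a transcription factor of the forkhead family (2 libraries), and the controls carried the empty pSin vector (2 libraries). Cells of both groups grew in high-glucose medium with serum under puromycin, so the selection and the viral backbone are shared. The labels do not say whether the 2 libraries of a group came from separate cultures or transductions, so the p-values measure the spread between these libraries, which may be technical.

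Lysosomal hydrolases are made in the endoplasmic reticulum, and most receive a mannose 6-phosphate tag in the Golgi that routes them to the lysosome. There they work at low pH, which the vacuolar proton pump maintains. TFEB, TFE3 and MITF are related transcription factors that bind an E-box element, called CLEAR, near the start of many lysosomal genes. The kinase mTORC1 holds these factors in the cytoplasm when nutrients are plentiful, so that their activity is set largely by location and phosphorylation, which RNA levels do not show. Inherited loss of single hydrolases causes storage diseases in which the undegraded substrate piles up.

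FOXD2 and empty vector libraries held between 14231338 and 15535817 counts assigned to genes. Mitochondrially encoded genes took 10.6% and 10.9% of the counts in FOXD2 cells and 8.81% and 9.0% in empty vector cells, and 14507 and 14507 genes had at least 10 counts in FOXD2 cells, against 14003 and 14093 in empty vector cells. FOXD2 had 276 and 257 TPM (a transcript level corrected for gene length and library size) in FOXD2 cells, against 1.84 and 1.42 TPM in empty vector cells, so the libraries matched their labels. Its log2 fold change was 7.32 (SE 0.10, edgeR adjusted p = 6.5e-50). Reads from the viral insert and from the endogenous gene are counted together. Epithelial markers of the line were present: EPCAM had 6083 and 5642 counts in FOXD2 cells and 4746 and 5446 in empty vector cells. VIL1, LGALS4 and CEACAM5, which mark differentiated colon epithelium, had at most 6 counts in any library. Several markers differed between the groups: EPCAM (log2 fold change 0.15), CDH1 (1.09), KRT8 (0.85), KRT18 (0.87) and KRT19 (1.04) rose and the intestinal factor CDX2 fell (-0.51). Of the markers of other cell types, COL1A1 (1.68, from 489 and 480 counts in FOXD2 cells and 132 and 160 counts in empty vector cells) and PMEL (1.0) rose. The fibroblast markers COL1A2, DCN, LUM and PDGFRA had 0 counts in all 4 libraries, and COL3A1 and PDGFRB had at most 6 in any library. The part of these differences, and of those in mitochondrial share and genes detected, in the lysosomal values was not tested.

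Most of the tested lysosomal genes were higher in FOXD2 cells, although 13 did not pass the test. Of the 42 members, 41 had enough counts to be tested, and 28 of these rose and 0 fell at an adjusted p under 0.05 (quasi-likelihood test of edgeR, with Benjamini-Hochberg adjustment over 14470 genes). At an unadjusted p under 0.05 the number of members lower was also 0, and DESeq2 and limma-voom gave 0 members lower. Over all tested genes 27.2% rose and 26.4% fell, which together is 53.5%, against 68.3% of the tested members that rose. Their median log2 fold change was 0.48, against 0.008 over all tested genes. A rise of at least 1.5-fold was found for 17 members, and one of at least 2-fold for 7, where all genes gave 14.9% and 8.2%. The members were chosen with earlier results of these data known, so these differences from all genes only describe the list and were not tested. The members were also more abundant than the average gene, with a median log2 CPM (counts scaled to library size) of 5.38 against 4.67, and more counts make a small difference easier to detect. In bulk RNA, more RNA per cell and more cells with the gene cannot be told apart.

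**Figure D1:**
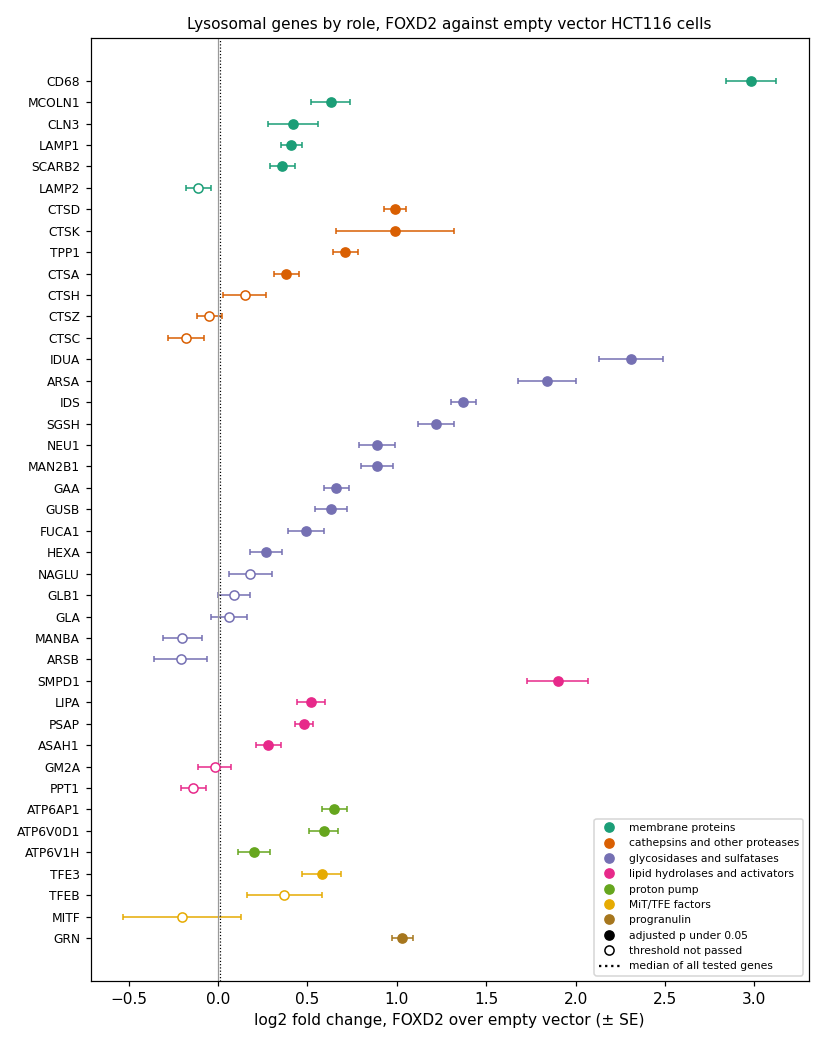
Fitted log2 fold change of FOXD2 over empty vector cells (x axis, bars are the SE) for the 41 tested members (y axis), coloured by role. Filled points passed an adjusted p of 0.05 and all lie to the right of 0; CD68, IDUA, SMPD1 and ARSA extend farthest.

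The summed level of the 42 members was 2329 and 2304 TPM in FOXD2 cells, against 1586 and 1575 TPM in empty vector cells. PSAP, the precursor of the saposins that help hydrolases reach their lipid substrates, was the most abundant member in every library and made up 18.0% and 18.4% of that sum in FOXD2 cells and 18.7% and 19.0% in empty vector cells. The order below it differed between the groups. GRN and CTSD came next in FOXD2 cells, ahead of LAMP1, whereas in empty vector cells LAMP1 stood above both in each library.

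Because MiT/TFE factors bind E-boxes, the promoters of the members were searched for the E-box core CACGTG. RefSeq promoter windows (GRCh38.p14, 250 bases before to 50 after a gene's start) were matched for 31 of the 42 members. CACGTG, which reads the same on both strands, was present in the windows of 9 of them (29%), compared with 8.77% of 27305 genes with a window. The longer form GTCACGTG, searched on both strands, was found for 8 members (25.8%, against 2.93% of all genes). It contains CACGTG, so the counts overlap. Of 21 members with a window that rose, 8 held CACGTG (LAMP1, MCOLN1, CLN3, CTSA, CTSD, GAA, NEU1 and ATP6V0D1), and of the other 10 with a window, 1 did (ARSB). Over the 10767 tested genes with a window, which leave out unexpressed genes, 12.5% held CACGTG and 5.22% held GTCACGTG. Of these tested genes, 24.9% of those with CACGTG rose and 26.9% of those without it. For GTCACGTG these shares were 27.8% and 26.6%. The forkhead motif TGTTTAC, searched on both strands, was in no member's window and in 4.19% of the windows of all genes. At a share this low few matches would be expected in 31 windows, so their absence tells little. Over the tested genes with a window 3.48% held TGTTTAC, and 31.5% of those with it rose, against 26.5% of those without it. All motif counts given here are matches of letters and not measured binding.

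The stretches before the start of 4 members that rose are shown because they carry these elements. The capitals mark CACGTG, each sequence reads 5′ to 3′ toward the gene, and each ends before the first exon annotated by GENCODE 29.
LAMP1 (chr13:113296989-113297238, plus strand): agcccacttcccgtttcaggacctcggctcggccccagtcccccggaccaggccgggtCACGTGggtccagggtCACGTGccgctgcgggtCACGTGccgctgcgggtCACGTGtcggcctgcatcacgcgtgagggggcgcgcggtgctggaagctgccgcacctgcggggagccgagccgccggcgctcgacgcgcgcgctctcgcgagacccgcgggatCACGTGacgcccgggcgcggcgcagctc
MCOLN1 (chr19:7522374-7522623, plus strand): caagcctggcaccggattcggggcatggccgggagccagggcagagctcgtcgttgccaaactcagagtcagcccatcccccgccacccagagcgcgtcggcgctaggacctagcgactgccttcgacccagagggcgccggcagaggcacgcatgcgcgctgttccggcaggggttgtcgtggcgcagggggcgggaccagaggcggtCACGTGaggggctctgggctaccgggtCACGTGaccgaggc
GAA (chr17:80101331-80101555, plus strand): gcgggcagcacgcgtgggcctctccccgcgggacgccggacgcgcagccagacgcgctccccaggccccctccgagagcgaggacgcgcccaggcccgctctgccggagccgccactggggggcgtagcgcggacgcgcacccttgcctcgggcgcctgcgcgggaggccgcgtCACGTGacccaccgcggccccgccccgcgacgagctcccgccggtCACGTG
NEU1 (chr6:31862907-31863071, minus strand): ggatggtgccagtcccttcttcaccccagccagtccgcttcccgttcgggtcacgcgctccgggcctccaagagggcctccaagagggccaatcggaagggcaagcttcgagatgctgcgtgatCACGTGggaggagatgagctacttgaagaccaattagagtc
LAMP1 shows 5 copies, MCOLN1 and GAA show 2 each, and NEU1 shows 1. A further copy in the LAMP1 window begins at base -1, the last base shown, and is not marked. The log2 fold change was 0.41 for LAMP1, 0.63 for MCOLN1, 0.66 for GAA and 0.89 for NEU1. The other members with CACGTG in a window had values of 0.99 (CTSD), 0.59 (ATP6V0D1), 0.42 (CLN3), 0.38 (CTSA) and -0.21 (ARSB). The 4 genes were chosen for display, and whether copies and fold change go together was not tested.

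Of the 3 MiT/TFE factors, 1 rose. TFE3, which is widely expressed, had 11.5 and 12.2 TPM in FOXD2 cells, against 7.71 and 8.14 TPM in empty vector cells. It rose by 0.58 on the log2 scale (SE 0.11, edgeR adjusted p = 1.2e-05). TFEB had 132 and 74 counts in FOXD2 replicates 1 and 2, against 70 and 83 counts in empty vector cells, so that the groups overlapped. TFEB had a fitted log2 value of 0.37 (SE 0.21) that did not pass (edgeR adjusted p = 0.14), and it rested on FOXD2 replicate 1: the value was 0.69 without replicate 2 (adjusted p = 0.0057) and -0.06 without replicate 1 (adjusted p = 0.87). MITF, the member of the family known from melanocytes and osteoclasts, had 0.56 and 0.69 TPM in FOXD2 cells and 1.05 and 0.56 TPM in empty vector cells, and its fitted log2 value of -0.20 (SE 0.33) did not pass (edgeR adjusted p = 0.63). Per length, TFE3 was the most abundant of the 3 in every library. Of 5 melanocyte markers, MLANA, TYR and SOX10 had 0 counts in all 4 libraries and DCT had at most 6. PMEL, the remaining melanocyte marker, had 60 and 65 counts in FOXD2 cells and 32 and 28 counts in empty vector cells and rose (edgeR adjusted p = 0.0021).

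Among membrane proteins, 5 of 6 rose, 2 of them by at least 1.5-fold. CD68, a heavily glycosylated lysosomal membrane protein best known from macrophages (chromosome 17, 7579467 to 7582113, GRCh38), had the largest fitted value of all members as RSEM divided its reads. It had 40.6 and 31.2 TPM in FOXD2 cells, against 5.13 and 6.59 TPM in empty vector cells. Its log2 fold change was 2.98 (SE 0.14, edgeR adjusted p = 6e-26). Of its exon bases, 81.7% are shared with AC016876.2, a noncoding transcript on the same strand, and reads in common were divided by the estimate of RSEM. With the counts of both summed, the values were 856 and 721 in FOXD2 cells and 176 and 263 in empty vector cells, and the log2 fold change was 1.79 (edgeR adjusted p = 2.2e-15), which is below the values of IDUA, SMPD1 and ARSA. The 12 macrophage and monocyte markers summed to 27 and 12 counts in FOXD2 cells and to 10 and 15 counts in empty vector cells, and PTPRC, TYROBP, AIF1, C1QA and C1QB had 0 counts in all 4 libraries.

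MCOLN1, the calcium channel of the lysosomal membrane, had 25.1 and 24.5 TPM in FOXD2 cells, against 17.0 and 15.2 TPM in empty vector cells (log2 fold change 0.63, SE 0.11, edgeR adjusted p = 1.5e-06). LAMP1, a main structural glycoprotein of the membrane, rose by 0.41, and SCARB2, the receptor that carries glucocerebrosidase to the lysosome, by 0.36. CLN3, whose loss causes a juvenile neuronal ceroid lipofuscinosis, had 266 and 359 counts in FOXD2 cells and 211 and 241 counts in empty vector cells (log2 fold change 0.42, edgeR adjusted p = 0.012). The CLN3 call ended without FOXD2 replicate 2 (0.14, adjusted p = 0.44), with DESeq2 (adjusted p = 0.14) and with limma on TPM (adjusted p = 0.13). Its exons are shared in part with AC138894.1 on the same strand, and with both summed the log2 fold change was 0.50 (edgeR adjusted p = 1.6e-05). LAMP2, the partner of LAMP1 that also serves chaperone-mediated autophagy, had a value of -0.11 and did not pass.

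Of 7 proteases tested, 4 rose and 3 did not pass. CTSD, the main aspartic protease of the lysosome, had 202 and 186 TPM in FOXD2 cells, against 108 and 94.4 TPM in empty vector cells. It rose by 0.99 on the log2 scale (SE 0.06, edgeR adjusted p = 1.2e-19), and the value was the same when summed with AC068580.4, a gene that shares its exons. TPP1, a tripeptidyl peptidase lost in a late infantile ceroid lipofuscinosis, had 48.3 and 47.8 TPM in FOXD2 cells and 27.2 and 28.5 TPM in empty vector cells (0.71, SE 0.07, edgeR adjusted p = 1.8e-12). CTSA, the serine carboxypeptidase that protects neuraminidase and beta-galactosidase in a complex, rose by 0.38. In each of these genes, which had passed on the same libraries, the FOXD2 libraries lay above the empty vector libraries.

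CTSK, the collagen-degrading cathepsin of osteoclasts, was low, with 46 and 39 counts in FOXD2 cells and 21 and 20 counts in empty vector cells, or 2.66 and 2.60 TPM against 1.35 and 1.36 TPM. The fitted log2 value of 0.99 (SE 0.33) passed (edgeR adjusted p = 0.0095), but the call ended with DESeq2 (adjusted p = 0.18), without FOXD2 replicate 1 (0.065) and without empty vector replicate 2 (0.063). Of 5 osteoclast markers, ACP5, OCSTAMP and DCSTAMP had 0 counts in all 4 libraries. CALCR had 6 and 2 counts in FOXD2 cells and 5 and 3 counts in empty vector cells. MMP9 had 7 and 5 counts in FOXD2 cells and 3 and 3 counts in empty vector cells. CTSS, the neighbour of CTSK on chromosome 1 and a cathepsin of antigen-presenting cells, was the 1 member not tested. It had 4 and 1 counts in FOXD2 cells and 4 and 0 counts in empty vector cells. The cysteine cathepsins CTSH (0.15), CTSZ (-0.05) and CTSC (-0.18) did not pass, although CTSZ was among the most abundant members with a mean of 106 TPM in each group. CTSC had 548 counts in empty vector replicate 1 and 762 in replicate 2, and its value was -0.35 without replicate 1 (edgeR adjusted p = 0.0074) and 0.01 without replicate 2.

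**Figure D2:**
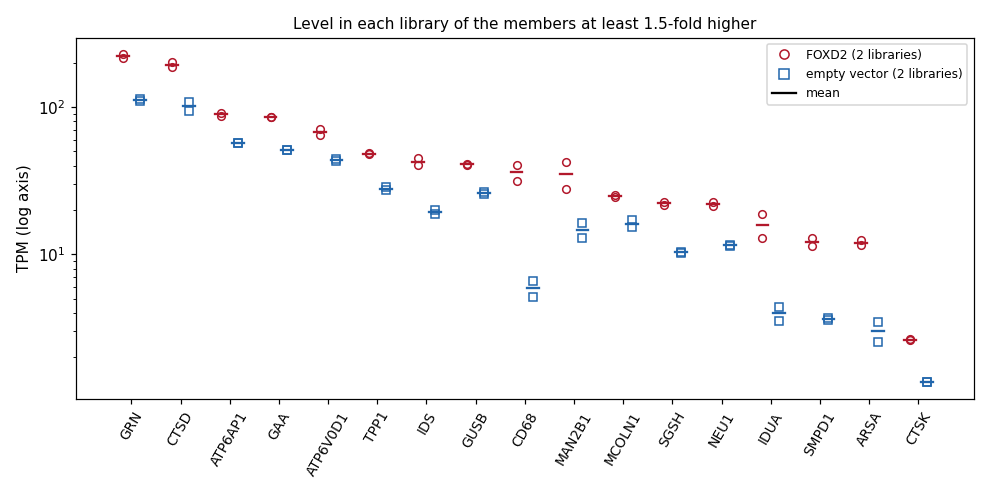
TPM (log axis) in each of the 2 FOXD2 libraries (circles) and 2 empty vector libraries (squares) of the 17 members that rose by at least 1.5-fold, ordered by their FOXD2 level. Short lines are means. In every gene both circles lie above both squares, which largely follows from choosing the genes by their rise in these same libraries. The gap is widest for CD68, and the narrowest gaps are near 1.5-fold.

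Glycosidases and sulfatases, the role with the most members, had 10 of 15 higher and held 8 of the 17 rises of at least 1.5-fold (median log2 fold change 0.63). Enzymes of heparan and dermatan sulfate degradation are given first. IDUA, the alpha-L-iduronidase lost in Hurler syndrome (chromosome 4, 986997 to 1004506), had 18.8 and 12.8 TPM in FOXD2 cells, against 3.54 and 4.40 TPM in empty vector cells. Its log2 fold change was 2.31 (SE 0.18, edgeR adjusted p = 6.9e-15), from 260 and 224 counts in FOXD2 cells and 33 and 61 counts in empty vector cells. SLC26A1, which lies across IDUA on the other strand, had at most 3 counts in any library.

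IDS, the iduronate sulfatase that acts just before IDUA on the same chains and is lost in Hunter syndrome (chromosome X, 149476990 to 149521096), had 40.5 and 44.7 TPM in FOXD2 cells, against 18.8 and 19.9 TPM in empty vector cells (1.37, SE 0.07, edgeR adjusted p = 1.3e-24). SGSH, a sulfamidase of heparan sulfate (chromosome 17, 80206716 to 80220923), had 21.7 and 22.7 TPM in FOXD2 cells and 10.2 and 10.4 TPM in empty vector cells (1.22, SE 0.10, edgeR adjusted p = 2.7e-15). GUSB, the beta-glucuronidase, had 41.2 and 40.4 TPM in FOXD2 cells and 26.5 and 25.5 TPM in empty vector cells (0.63, SE 0.09, edgeR adjusted p = 1.3e-08). In IDS, SGSH and GUSB, which had passed on the same libraries, replicates lay close together and the groups were apart. By contrast NAGLU (0.18), which acts on the same heparan sulfate chains, and ARSB (-0.21), which acts on dermatan sulfate, did not pass.

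ARSA, the arylsulfatase that degrades sulfatide (chromosome 22, 50622754 to 50628173), had 11.5 and 12.5 TPM in FOXD2 cells, against 2.55 and 3.49 TPM in empty vector cells (1.84, SE 0.16, edgeR adjusted p = 6.5e-15). NEU1, the neuraminidase that removes sialic acid, had 22.8 and 21.1 TPM in FOXD2 cells and 11.6 and 11.4 TPM in empty vector cells (0.89, SE 0.10, edgeR adjusted p = 1.4e-11). NEU1 and CTSA thus rose, while their partner in the same complex, the beta-galactosidase GLB1, had a value of 0.09 (SE 0.09) and did not pass.

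MAN2B1, an alpha-mannosidase, had 42.2 and 27.8 TPM in FOXD2 cells, against 12.8 and 16.4 TPM in empty vector cells, and its counts gave a rise of 0.89 on the log2 scale (SE 0.09, edgeR adjusted p = 9e-13). GAA, the alpha-glucosidase that degrades glycogen and is lost in Pompe disease, had 84.9 and 85.4 TPM in FOXD2 cells and 51.4 and 50.7 TPM in empty vector cells (0.66, SE 0.07, edgeR adjusted p = 1.4e-12). It was the most abundant enzyme of this role in every library. FUCA1 (0.49), the alpha-fucosidase, and HEXA (0.27), the alpha subunit of beta-hexosaminidase, rose by less than 1.5-fold. The HEXA call (edgeR adjusted p = 0.011) ended with DESeq2 (adjusted p = 0.16), without FOXD2 replicate 1 (0.10) and without empty vector replicate 1 (0.086) or 2 (0.059). The alpha-galactosidase GLA (0.06) and the beta-mannosidase MANBA (-0.20) did not pass, and MANBA, with 298 and 368 counts in FOXD2 cells and 370 and 369 in empty vector cells, was lower only without FOXD2 replicate 2 (-0.41, edgeR adjusted p = 0.0038).

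Lipid-degrading genes rose in 4 of 6 cases, and 1 stood apart by size. SMPD1, the acid sphingomyelinase lost in Niemann-Pick disease types A and B (chromosome 11, 6390431 to 6394998), had 12.9 and 11.3 TPM in FOXD2 cells, against 3.68 and 3.59 TPM in empty vector cells. The log2 fold change was 1.90 (SE 0.17, edgeR adjusted p = 2.1e-14). PSAP had 418 and 423 TPM in FOXD2 cells and 296 and 300 TPM in empty vector cells and rose by 0.48 (SE 0.05), as did the acid lipase LIPA by 0.52 (SE 0.08) and the acid ceramidase ASAH1 by 0.28 (SE 0.07). LIPA shares 65 exon bases on the opposite strand with IFIT2, an interferon-induced gene with 68 and 57 counts in FOXD2 cells and 9 and 13 counts in empty vector cells, against 1020 and 1150, and 713 and 748 counts, of LIPA. The GM2 activator GM2A (-0.02) and the thioesterase PPT1 (-0.14) did not pass. PPT1 shares 1189 exon bases with the more abundant gene CAP1 on the opposite strand.

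Proton pump genes rose in all 3 cases. ATP6AP1, an accessory subunit of the pump, had 90.4 and 87.4 TPM in FOXD2 cells, against 56.5 and 56.5 TPM in empty vector cells (0.65, SE 0.07, edgeR adjusted p = 1.1e-11). ATP6V0D1, which links the membrane part of the pump to its stalk, had 70.6 and 64.0 TPM in FOXD2 cells and 44.4 and 42.7 TPM in empty vector cells (0.59, SE 0.08, edgeR adjusted p = 9.9e-09). ATP6V1H, a regulatory subunit of the cytoplasmic part, was near the threshold (0.20, SE 0.09, edgeR adjusted p = 0.048), and its call ended in 9 of 14 alternatives.

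GRN encodes progranulin, a secreted and lysosomal glycoprotein whose partial loss causes frontotemporal dementia and whose full loss causes a ceroid lipofuscinosis (chromosome 17, 44345086 to 44353102). It had 228 and 215 TPM in FOXD2 cells, against 109.8 and 114 TPM in empty vector cells. The rise of 1.03 on the log2 scale (SE 0.06, edgeR adjusted p = 1.7e-20) was the largest among members above 100 TPM in empty vector cells. The largest rises of all were those of low members: CD68, IDUA, SMPD1 and ARSA had mean levels between 3.02 and 5.86 TPM in empty vector cells. The level of CD68 is as RSEM divided its reads. In empty vector cells its mean was 4.9 CPM, and 15.0 CPM when summed with AC016876.2. The empty vector level is also the base of the fold change, so level and fold change are not independent. Members of a like low level also failed to pass, such as ARSB at 3.80 TPM and TFEB at 3.50 TPM.

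**Figure D3:**
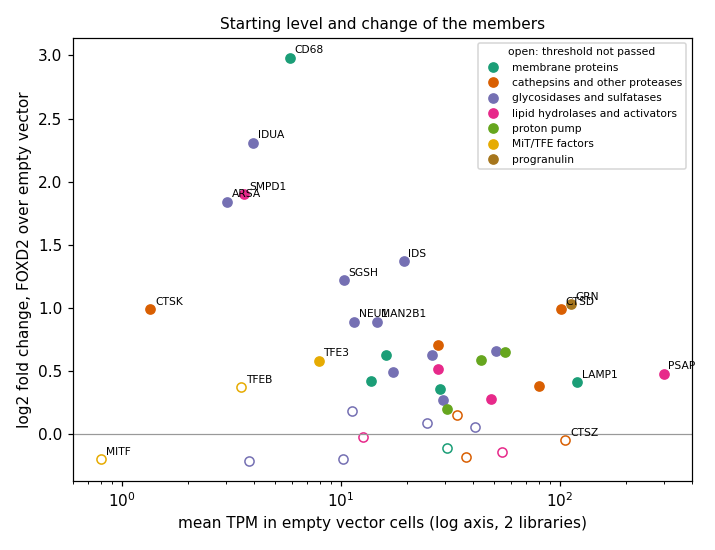
Log2 fold change of FOXD2 over empty vector cells (y axis) against the mean TPM in empty vector cells (x axis, log scale) for the 41 tested members, coloured by role, with open circles for members that did not pass. CD68, IDUA, SMPD1 and ARSA, the 4 highest points, all lie below 6 TPM, and PSAP lies far to the right at 298 TPM with a value of 0.48. CD68 is placed as RSEM divided its reads, and the empty vector level is also the base of the fold change.

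A wider list of 130 other genes of lysosomes, their acidification, sorting and regulation was read from the same fit. Of 117 tested, 60 rose and 12 fell (51.3% higher, median log2 fold change 0.28), with 19 at least 1.5-fold higher and 1 at least 1.5-fold lower. Their share of rises of any size lay between that of the members and the 27.2% of all genes. The share with a rise of at least 1.5-fold was near the 14.9% of all tested genes. The wider list, too, was chosen with earlier results of these data known, so its shares are a description. The membrane proteins and transporters had 18 of 29 higher and 2 lower (median 0.36), and genes of mTORC1 and MiT/TFE regulation 7 of 17 higher and 3 lower (median 0.03); differences between these groups were not tested. The other proton pump subunits gave 9 of 17 higher and 2 lower, the other glycosidases and sulfatases 7 of 14 and 2, the other proteases 4 of 9 and 0, and the lipases, phosphatases and nucleases 4 of 9 and 1. Genes that sort enzymes to the lysosome gave 6 of 13 higher and 2 lower, and autophagy genes known as MiT/TFE targets 5 of 9 and 0.

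LAMP3, a LAMP family protein of dendritic cells that interferon can induce, had 8.72 and 9.15 TPM in FOXD2 cells, against 1.19 and 1.58 TPM in empty vector cells (log2 fold change 3.0, SE 0.17, edgeR adjusted p = 1.3e-21). NPC2, which hands cholesterol out of the lysosome, had 531 and 533 TPM in FOXD2 cells, against 153 and 175 TPM in empty vector cells (1.60, SE 0.07), whereas its membrane partner NPC1 fell by 0.27 in the count fit, with a difference of 0.00 on the TPM scale. In FOXD2 cells NPC2 was therefore above PSAP, the most abundant member, and in empty vector cells below it. The proton-leak channel TMEM175 (1.40), the pump subunit TCIRG1 (1.26), the chloride exchanger CLCN7 (0.92) and the protease CTSO (1.60, from 46 and 40 counts in FOXD2 cells and 16 and 11 counts in empty vector cells) also rose. So did GNPTG (1.02), a subunit of the enzyme that makes the mannose 6-phosphate tag, and SQSTM1 (0.90), the autophagy receptor p62, whose exons overlap those of MRNIP on the opposite strand.

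**Figure D4:**
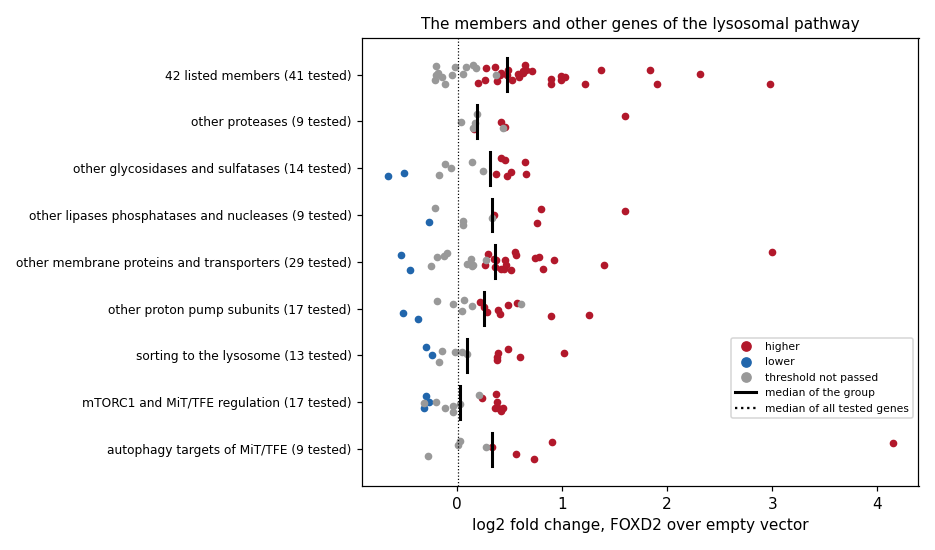
Log2 fold change of FOXD2 over empty vector cells (x axis) of the 41 tested members (top row) and of 117 other lysosomal genes by role (rows below), red for higher, blue for lower and grey where the threshold was not passed. The thick bar is the median of a row (0.48 for the members, 0.03 for mTORC1 and MiT/TFE regulation), and the red point at 4.15 is the low autophagy gene ATG9B, with 42 and 54 counts in FOXD2 cells and 2 and 3 in empty vector cells.

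Of the 12 falls, 1 was of at least 1.5-fold. CTBS, a chitobiase that trims the core of N-glycans, fell most, with 222 and 221 counts in FOXD2 cells against 317 and 356 counts in empty vector cells (-0.66, SE 0.12, edgeR adjusted p = 4.6e-06). The iron transporter SLC11A2 (-0.53), the pump subunit ATP6V1E1 (-0.51), the heparanase HPSE (-0.50), LAPTM4B (-0.45), the pump subunit ATP6V0E2 (-0.37), the mTORC1 subunit RPTOR (-0.31) and the sorting adaptor GGA2 (-0.29) followed. Of the mannose 6-phosphate receptors, M6PR fell by 0.24 and IGF2R rose by 0.38. HGSNAT, an acetyltransferase of heparan sulfate degradation, rose by 0.65, in contrast to HPSE, an endoglycosidase that cuts the same chains.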

How the data were processed

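Each library came as an RSEM table of genes. The genome was GRCh38 and the tools RSEM 1.2.31 and STAR 2.7.2b, per the submitters' processing notes; the annotation release and the strand setting of counting are not given in the sources used here. The deposited expected counts, which share reads that map to several genes and need not be whole, were rounded to whole numbers, and the deposited TPM were used for levels per length and for an alternative test. The posterior SD of the deposited count was 16.0% for CLN3, 8.86% for CD68 and 2.24% for MAN2B1 in the library where it was largest, and at most 0.593% for the other members.

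FOXD2 was compared with empty vector with edgeR 4.0.16 under R 4.3.3, using its quasi-likelihood fit (TMM, filterByExpr, robust fit, both directions) on the whole table, with Benjamini-Hochberg adjustment over 14470 genes at 0.05. The SE is the fold change divided by the root of the test statistic. Alternatives used limma 3.58.1, DESeq2 1.42.0, other scaling, other filters, a replicate block and each library left out; the lone library of a group is then assumed to vary like the other group. Libraries held 15340166 and 14231338 counts for FOXD2 and 14245777 and 15535817 for empty vector; 3 counts equal 0.193 to 0.211 CPM, and such limits cover counting error only. Chi-square per degree of freedom was 4.09 and 2.59 within the groups, so replicates differed beyond sampling noise.

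The members and lists were chosen with earlier results of these data known. Values per library were given for members past the threshold and at least 1.5-fold different and for the MiT/TFE factors. The 8 largest rises and the 8 largest falls were named among other lysosomal genes whose average log2 CPM was 1 or more. Of these, LAMP3, NPC2, CTSO and CTBS were given with values per library and the rest with the fold change. ATG9B, NPC1, M6PR, IGF2R and HGSNAT were named after their values were seen. Coordinates and shared exons are from GENCODE 29 on GRCh38. Promoter sequences are from RefSeq on GRCh38.p14.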

Additional observations from a re-analysis of the deposited data

How the results depend on the processing

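Of the 28 members that rose, 24 passed under all 14 other settings tried; the others were CLN3, CTSK, HEXA and ATP6V1H. The count of members higher stayed between 24 (DESeq2) and 28, and with 1 library left out between 25 and 28. Members lower numbered 0 under every setting except without FOXD2 replicate 2 or without empty vector replicate 1, where the range of 0 to 1 reached 1. The members' median log2 fold change was 0.47 with RLE size factors, 0.55 with no scaling factors, 0.43 with no filter on low counts and with DESeq2, 0.50 with limma on TPM at either pseudocount (1 or 0.1), 0.48 to 0.50 with a library left out, and 0.49 with CD68, CTSD and CLN3 summed with the gene that shares their exons, a step chosen after seeing the data. Other lysosomal genes lower numbered 7 rather than 12 with limma on TPM at either pseudocount. Over all genes, 2414 were higher with DESeq2, and 2424 or 2415 were lower with limma on log2(TPM + 1) or log2(TPM + 0.1). The cause was not tested.

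Direction turned for members that had not passed: LAMP2 (0.11 with limma on TPM), CTSC (range -0.35 without empty vector replicate 1 to 0.01 without replicate 2), CTSZ (0.02 with no scaling factors), GLA (-0.02 without empty vector replicate 2 to 0.14 without replicate 1), GM2A (0.05 with no scaling factors, 0.01 with limma on TPM, -0.07 without empty vector replicate 2 to 0.03 without replicate 1) and TFEB (-0.06 without FOXD2 replicate 1 to 0.69 without replicate 2). The labels do not say whether same-numbered libraries share more than a number. Their deviations from the group means correlated at -0.0989. With 2 libraries per group this is a single value, which cannot decide the question. With the replicate number as a block 3680 genes were higher and 3494 lower, 27 members rose, and ATP6V1H did not pass (0.20, edgeR adjusted p = 0.088). Levels near 3 counts, such as CTSS, could not be compared at this depth.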
